A study of Homo sapiens with 8 samples.

Results

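Neurotrophins are secreted proteins that keep neurons alive and shape their outgrowth, and the genes described here are those of the ligands BDNF and NTF3 and of the receptors NTRK2, NTRK3, NGFR and SORT1. They were chosen as every probe of the deposited array table whose gene symbol is 1 of these 6 names, which gave 6 of the 31426 symbols in the table and 15 of its 47322 probes: 7 for BDNF, 3 for NTRK2, 2 for NTRK3 and 1 each for NTF3, NGFR and SORT1. The arrays are 8 HumanHT-12 v4 bead arrays (Illumina) of human neuroblastoma cells. SH-SY5Y is a neuroblastic cell line and SH-EP2 an epithelial-like one, both derived from the same parental line, SK-N-SH. Each line had been transduced with a lentivirus carrying a TRPM7 shRNA or, as control, a nonfunctional shRNA. TRPM7 is a channel-kinase that conducts magnesium and calcium. Each of the 4 groups had 2 arrays. All groups, controls included, thus carry a lentivirus. A single TRPM7 shRNA was used, and the sources used here do not say whether the 2 arrays of a group came from separate cultures, so that p-values measure only the spread between these samples, which may be technical.

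Neurotrophins are made as precursors that proteases cleave to the mature form. Mature BDNF binds the receptor tyrosine kinase TrkB (NTRK2), and NTF3 binds TrkC (NTRK3). NGFR, the p75 neurotrophin receptor, binds all mature neurotrophins and, with sortilin (SORT1) as its co-receptor, the uncleaved precursors. Sortilin also sorts proteins, BDNF precursor among them, between the Golgi, endosomes and the regulated secretory pathway. In neuroblastoma, Trk receptors are known as markers of differentiation state, and SH-SY5Y cells are known to gain TrkB after retinoic acid treatment.

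Members with a reliable signal were those of SORT1 and BDNF, so the sequence before a start of these 2 genes is shown, with GC boxes (GGGCGG on either strand) and the half-site of the cAMP response element (TGACG on either strand) in capitals. Both are from RefSeq on GRCh38.p14, minus strand, and run 5′ to 3′ over the 250 bases that end at the start site. The SORT1 sequence is that of the upstream-most of 2 starts, chr1:109397919-109398168. The BDNF sequence, chr11:27701622-27701871, is that of 1 of 5 starts, chosen because it holds the TGACG letters.
SORT1: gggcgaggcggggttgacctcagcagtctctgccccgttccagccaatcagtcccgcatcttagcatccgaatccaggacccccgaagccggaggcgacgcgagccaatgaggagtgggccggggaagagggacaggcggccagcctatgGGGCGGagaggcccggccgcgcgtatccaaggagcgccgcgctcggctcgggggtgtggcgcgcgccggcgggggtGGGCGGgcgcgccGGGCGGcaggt
BDNF: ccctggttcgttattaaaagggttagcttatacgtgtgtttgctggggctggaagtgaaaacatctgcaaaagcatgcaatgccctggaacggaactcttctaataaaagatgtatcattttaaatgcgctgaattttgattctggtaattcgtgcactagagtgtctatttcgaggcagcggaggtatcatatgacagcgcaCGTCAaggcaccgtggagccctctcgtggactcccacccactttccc
The SORT1 sequence was 74.0% G or C with 32 CpG dinucleotides and 3 GC boxes, and the BDNF sequence was 46.8% G or C with 11 CpG dinucleotides. GC boxes were present in 42.6% and the TGACG letters in 21.2% of the 34943 windows of this length in the table, so neither is rare. A match is a description of the letters only. The sources used here do not give which transcript each probe measures, and therefore not which start the array signal belongs to.

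Whether a gene was measurable at all was read from the detection p, the share of negative control beads at least as bright as the probe. Over all probes, 40.8% to 44.2% were detected on an array at a detection p under 0.05. Of the 15 member probes, 3 were detected on both arrays of at least 1 group: the SORT1 probe ILMN_1707077 and the BDNF probe ILMN_1751276 on all 8 arrays, and the BDNF probe ILMN_1761910 on 5. At a detection p under 0.01 the first 2 remained. The other 12 probes gave 8 detected values of 96 (8.33%), their signals spanned 90.4 to 128.7 against array medians of 104.7 to 119.9, and 7 of them were detected on no array. The kinase receptors, the p75 receptor and NTF3 were thus at or near background in both lines, and SORT1 and BDNF stood above it.

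**Figure D1:**
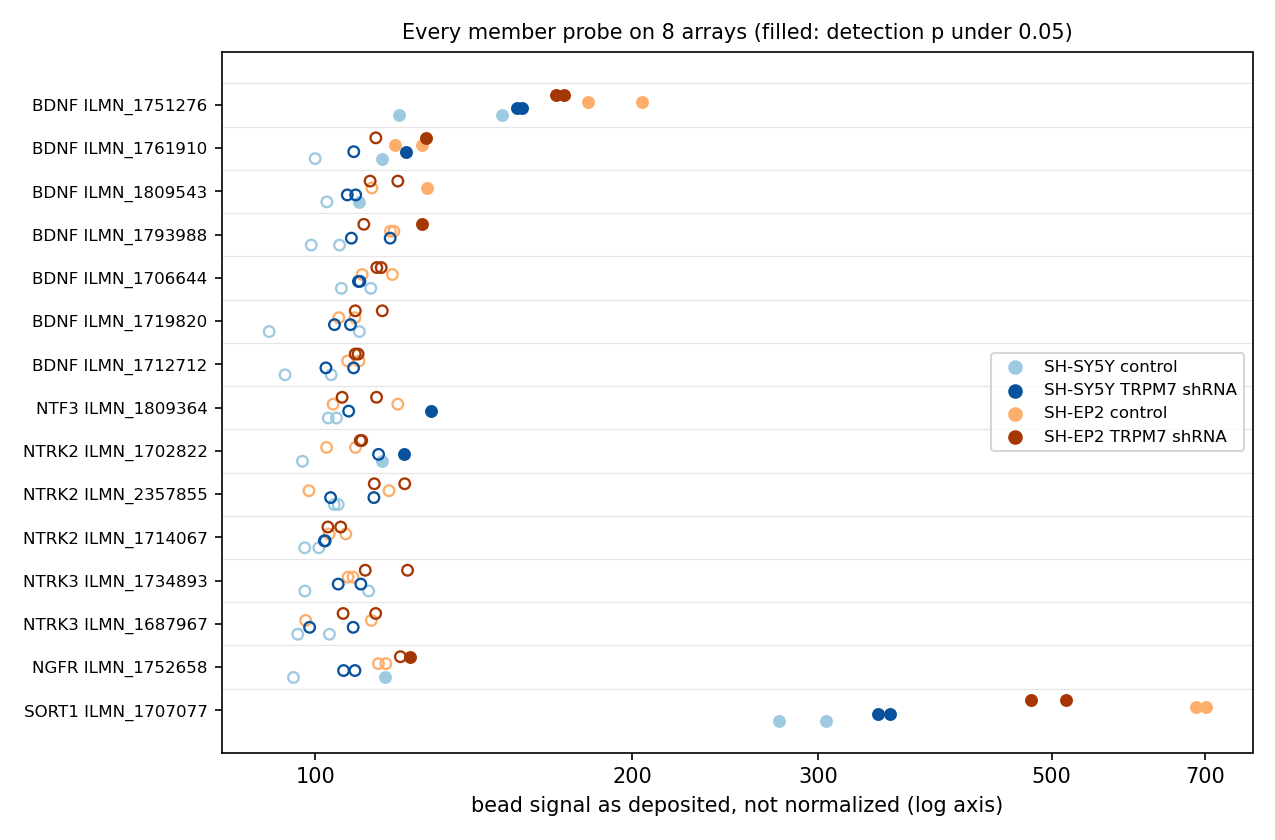
Deposited bead signal, on a log axis, of each of the 15 member probes on the 8 arrays, with 1 point per array coloured by group. Filled points were detected at a detection p under 0.05. SORT1 lies between 275.6 and 700.4 and BDNF ILMN_1751276 between 120.1 and 204.0, while the 12 probes not detected on both arrays of any group lie between 90.4 and 128.7.

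Among the ligands, BDNF was read by ILMN_1751276. Its deposited signals were 204.0 and 181.4 in SH-EP2 control cells, 172.0 and 169.3 in SH-EP2 cells with TRPM7 shRNA, 150.3 and 120.1 in SH-SY5Y control cells, and 155.5 and 157.2 in SH-SY5Y cells with TRPM7 shRNA. The SH-EP2 arrays were all brighter than the SH-SY5Y arrays, and within SH-EP2 the TRPM7 shRNA arrays lay below both controls. After background correction and quantile normalization the log2 levels were 6.37 ± 0.13, 5.81 ± 0.018, 4.78 ± 0.56 and 5.14 ± 0.080 in the same order (mean ± SD, n = 2). The wide SD of the SH-SY5Y controls came from replicate 2, whose normalized level was 4.39 against 5.18 in replicate 1, and the 2 SH-SY5Y groups overlapped.

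The other BDNF probes did not carry the full pattern at a measurable level. ILMN_1761910 had signals of 126.3 and 119.1 in SH-EP2 controls, 114.1 and 127.2 in SH-EP2 TRPM7 shRNA cells, 115.7 and 99.9 in SH-SY5Y controls, and 108.7 and 122.0 in SH-SY5Y TRPM7 shRNA cells. Detection p values of this probe ran from 0.0195 to 0.51, and its knockdown groups overlapped in both lines. Its SH-EP2 controls lay above its SH-SY5Y controls, by 0.71 on the log2 scale, without passing adjustment (adjusted p 0.447 in limma). ILMN_1809543 and ILMN_1793988 were detected on 2 arrays and 1 array, and ILMN_1706644, ILMN_1719820 and ILMN_1712712 on none. BDNF has several starts that are spliced to a shared coding exon, so its probes need not measure the same transcripts.

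NTF3, the TrkC ligand, has the probe ILMN_1809364. Its signals were 104.7 and 102.8 in SH-SY5Y controls, 128.7 and 107.5 in SH-SY5Y TRPM7 shRNA cells, 119.7 and 103.9 in SH-EP2 controls, and 106.0 and 114.3 in SH-EP2 TRPM7 shRNA cells. SH-SY5Y TRPM7 shRNA replicate 1 was the single detected array (detection p 0.00519), and its partner had a detection p of 0.579. On the deposited scale both SH-SY5Y TRPM7 shRNA arrays were above both controls, while after normalization the log2 levels, 3.76 and 1.93 against 2.13 and 2.51, overlapped, and the SH-EP2 groups overlapped on both scales. NTF3 was therefore not well above background in any group as a whole.

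The kinase receptors gave no group with both arrays detected. The NTRK2 probe ILMN_1702822 reached detection on SH-SY5Y control replicate 1 (signal 115.7, detection p 0.0481) and SH-SY5Y TRPM7 shRNA replicate 2 (signal 121.4, detection p 0.0416), with 97.2 and 114.8 on the other 2 SH-SY5Y arrays. On the 4 SH-EP2 arrays it lay between 102.5 and 110.6. ILMN_2357855 and ILMN_1714067, the other NTRK2 probes, and both NTRK3 probes, ILMN_1734893 and ILMN_1687967, were detected on none of the 8 arrays. The lowest detection p among these 4 was 0.0662.

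NGFR, the p75 receptor, is a marker of Schwann cells and neural crest precursors. Its probe ILMN_1752658 had signals of 116.5 and 95.3 in SH-SY5Y controls, 106.3 and 109.0 in SH-SY5Y TRPM7 shRNA cells, 114.8 and 116.6 in SH-EP2 controls, and 120.4 and 122.9 in SH-EP2 TRPM7 shRNA cells. Detection was marginal on 2 arrays, SH-SY5Y control replicate 1 (0.0416) and SH-EP2 TRPM7 shRNA replicate 2 (0.0494). A change in NGFR, NTRK2, NTRK3 or NTF3 with TRPM7 shRNA was not detectable at these signals, which does not show that there was none.

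Sortilin was measurable throughout, with SORT1 detected on all 8 arrays. Its deposited signals were 700.4 and 685.3 in SH-EP2 controls, 478.1 and 516.0 in SH-EP2 TRPM7 shRNA cells, 305.3 and 275.6 in SH-SY5Y controls, and 351.4 and 342.3 in SH-SY5Y TRPM7 shRNA cells. The 4 groups did not overlap on this scale. The normalized log2 levels were 9.20 ± 0.091, 8.58 ± 0.10, 7.62 ± 0.22 and 7.71 ± 0.17 (mean ± SD, n = 2). After normalization the 2 SH-SY5Y groups did overlap, their array medians before it being 111.5 and 104.7 in controls and 116.8 and 117.0 with TRPM7 shRNA. The order from highest to lowest was SH-EP2 control, SH-EP2 TRPM7 shRNA, SH-SY5Y TRPM7 shRNA and SH-SY5Y control, in which the last 2 do not differ beyond their spread.

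**Figure D2:**
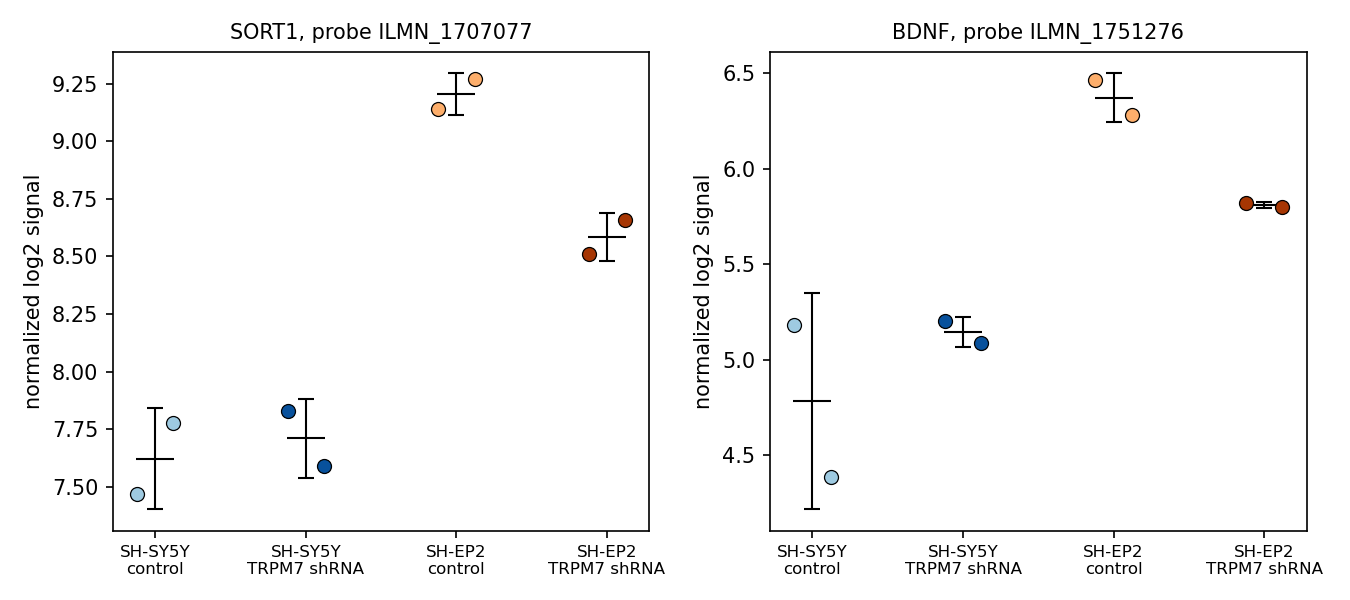
Normalized log2 signal of SORT1 (left) and BDNF ILMN_1751276 (right) by group, with 1 point per array and a bar at the mean ± SD of 2 arrays. In both panels SH-EP2 control cells are highest (9.20 and 6.37), SH-EP2 cells with TRPM7 shRNA lie below them (8.58 and 5.81), and the 2 SH-SY5Y groups overlap.

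The first comparison asks how the lines differ without knockdown. Of the 15 member probes, 2 were higher and 0 lower in SH-EP2 than in SH-SY5Y control cells, where 26.2% of all probes were called at an adjusted p under 0.05. SORT1 was higher by 1.58 on the log2 scale (SE 0.14, 95% interval 1.30 to 1.87, adjusted p 9.41e-09 in limma), which is 2.99-fold. BDNF ILMN_1751276 was higher by 1.59 (SE 0.26, 95% interval 1.04 to 2.13, adjusted p 5.98e-05). Among the 14577 probes detected on all arrays 60.1% were called, so a difference between the lines is the usual case for a measurable gene. The size for BDNF depended on the background model, with 0.47 when no background was subtracted, and averaging its 7 probes gave 0.50 with an adjusted p of 0.358.

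The knockdown itself could not be read from the arrays, since the TRPM7 probe ILMN_1667047 was not detected on any of them (detection p 0.0753 to 0.201). The study measured TRPM7 mRNA in both lines by quantitative PCR, whose values are not among the data used here. In SH-SY5Y cells with TRPM7 shRNA, 0 of 15 member probes changed, and 0 had an unadjusted p under 0.05 in limma, nor was any called under the 19 alternatives, where 2.11% of all probes were called. SORT1 differed by 0.09 (SE 0.14, 95% interval -0.20 to 0.37, adjusted p 0.894) and BDNF ILMN_1751276 by 0.36 (SE 0.26, 95% interval -0.19 to 0.91, adjusted p 0.682). The intervals still hold a rise in SORT1 of up to 0.37 and in BDNF of up to 0.91 on the log2 scale. The sign for SORT1 turned without SH-SY5Y control replicate 1 (-0.068) or SH-SY5Y TRPM7 shRNA replicate 1 (-0.032), and for BDNF without SH-SY5Y control replicate 2 (-0.039).

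In SH-EP2 cells with TRPM7 shRNA, 1 of 15 member probes changed, SORT1, which was lower, against 3.02% called over all probes and 7.79% among probes detected on all arrays. SORT1 fell by 0.62 on the log2 scale (SE 0.14, 95% interval -0.91 to -0.34, adjusted p 0.0118), a level 1.54-fold lower, with both TRPM7 shRNA arrays below both controls. BDNF ILMN_1751276 differed by -0.56 (SE 0.26, 95% interval -1.11 to -0.016, unadjusted p 0.0444, adjusted p 0.375), so that it did not pass although its arrays did not overlap either. The BDNF difference was -0.21 with no background correction and -0.30 with the mean over its probes. The median over the 15 probes was -0.22, with 0.0061 over all probes, and 12 of the 15 were at background. In SH-SY5Y cells, where 0 were called, it was -0.19, so neither median is read as a shift of the members. The SORT1 call did not hold without SH-EP2 control replicate 1 (-0.69, adjusted p 0.0578), SH-EP2 control replicate 2 (-0.56, 0.167), SH-EP2 TRPM7 shRNA replicate 1 (-0.55, 0.167) or SH-EP2 TRPM7 shRNA replicate 2 (-0.69, 0.0528). It was also lost with eBayes without an intensity trend (adjusted p 0.337) and in a per-probe test with equal variances (0.287).

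Markers of the epithelial-like, mesenchymal state moved in the same contrast. In SH-EP2 cells with TRPM7 shRNA, 6 of 13 mesenchymal marker genes were lower and 1 higher, with a list median of -0.37. Called genes made up 53.8% of the list, against 3.02% of all probes and 7.79% of those detected on all arrays. The list was chosen with earlier results of these data known. It holds SNAI2 and TWIST1, which the study had reported as lower in these cells, so its share is not independent evidence of a shift. The median level of the list was 9.78 to 9.90 on the TRPM7 shRNA arrays against 10.42 to 10.43 on the control arrays. COL1A2, a collagen, fell by 1.56, and SNAI2, a transcription factor of mesenchymal cells, by 1.39, while CD44, an adhesion receptor, rose by 0.77. All 13 stayed detected on both arrays of each SH-EP2 group. Whether this shift had a part in the SORT1 decrease was not tested, and in bulk RNA fewer cells of a type and less RNA per cell cannot be told apart. Between the control lines, 11 of the 13 mesenchymal genes were higher and 2 lower in SH-EP2 (100%). In this contrast 26.2% of all probes and 60.1% of those detected on all arrays were called. The noradrenergic list was at a median of 11.19 in SH-SY5Y controls and 3.11 in SH-EP2 controls. Both control arrays detected 12 of its 13 genes in SH-SY5Y and 5 of 13 in SH-EP2. DBH was undetected in both SH-EP2 groups. HAND2, GATA2, ISL1 and CHGB were detected on both arrays of each SH-EP2 group, and TH on no array of either line. With TRPM7 shRNA, 0 noradrenergic genes were higher and 3 lower in SH-SY5Y, and 1 was higher and 2 lower in SH-EP2 cells. In SH-SY5Y cells 1 mesenchymal gene was higher and 2 lower. Each of these sets of called genes made up 23.1% of its list. In SH-SY5Y cells 2.11% of all probes were called, or 5.63% of those detected on all arrays. Of 8 Schwann and glial markers, 1 was detected on both arrays in each of the 4 groups, and SOX10 was on none of the 8 arrays, beside the near-background NGFR signal.

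The difference between the 2 knockdown effects was tested as an interaction. Of the 15 member probes 0 were called, 2 had an unadjusted p under 0.05 in limma, and 1.4% of all probes were called. For SORT1 the SH-EP2 effect minus the SH-SY5Y effect was -0.71 (SE 0.19, 95% interval -1.11 to -0.31, unadjusted p 0.00152, adjusted p 0.0828), and for BDNF ILMN_1751276 it was -0.92 (SE 0.37, 95% interval -1.69 to -0.15, unadjusted p 0.0219, adjusted p 0.362). The BDNF value was -0.28 with no background correction and -0.15 with the mean over its probes. SORT1 passed the threshold under 7 of 18 alternatives, for instance with no background correction (-0.56, adjusted p 0.00864) and without SH-SY5Y control replicate 2 (-0.86, adjusted p 0.0331). A decrease of SORT1 particular to SH-EP2 was therefore not shown at the set threshold.

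**Figure D3:**
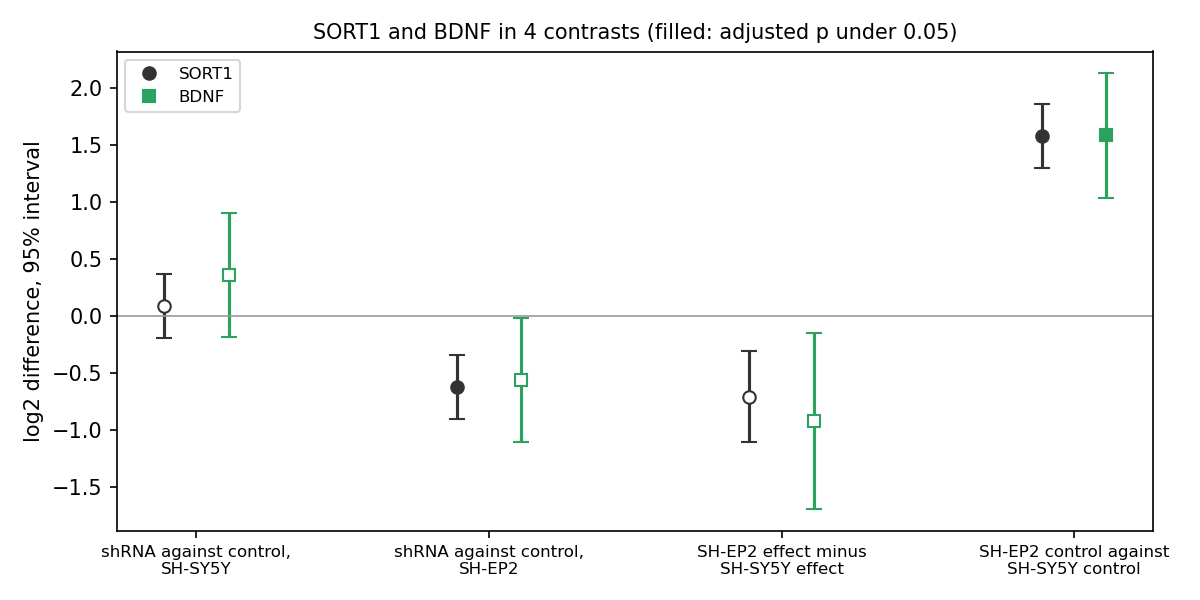
Difference on the log2 scale with its 95% interval for SORT1 (circles) and BDNF ILMN_1751276 (squares) in the 4 contrasts, filled where the adjusted p was under 0.05. Filled points are the line difference for both genes (1.58 and 1.59) and the SH-EP2 knockdown effect for SORT1 (-0.62).

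Of the other genes of the pathway, 91 symbols had been listed by role, 88 had a probe and 75 were detected on at least 2 arrays. With TRPM7 shRNA, 1 rose and 3 fell in SH-SY5Y cells (4.55%), and 5 rose and 0 fell in SH-EP2 cells (5.68%), against 2.11% and 3.02% of all probes, or 5.63% and 7.79% of probes detected on all arrays. These shares lie near those of measurable genes in general.

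Next to the ligands stand the proteins that cut and carry their precursors. Of 10 such genes 1 changed in each line (10%), against 2.11% of all probes in SH-SY5Y and 3.02% in SH-EP2 cells. Among probes detected on all arrays the shares were 5.63% and 7.79%. In both lines the gene was PLAT, tissue plasminogen activator, which starts the cleavage of BDNF precursor through plasmin. PLAT fell by 0.68 in SH-SY5Y (SE 0.15, adjusted p 0.0161) and rose by 0.66 in SH-EP2 cells (SE 0.15, adjusted p 0.0160), and its arrays did not overlap in either line. The 2 calls were lost under 7 and 6 of 19 alternatives, and with no background correction the SH-SY5Y difference was -0.28 (adjusted p 0.0517). The plasmin precursor PLG and the convertases PCSK1 and PCSK2 were detected on no array. FURIN, a convertase of the Golgi, was detected on all 4 SH-EP2 arrays and on no SH-SY5Y array, and was at least 6.03-fold higher in SH-EP2 controls (adjusted p 4.37e-06). This bound sets the SH-EP2 mean against the lowest detected signal on the SH-SY5Y arrays. NTF4, a further ligand, was detected on no array by 1 probe and on 1 array by a probe under its older symbol NTF5.

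Relatives of sortilin share its VPS10 domain, and 0 of 4 changed with TRPM7 shRNA in either line. With 2.11% and 3.02% of all probes called in SH-SY5Y and SH-EP2 cells, 0 of 4 is no result about them. Between the control lines 1 was higher and 1 lower in SH-EP2 (50%), against 26.2% of all probes and 60.1% of those detected on all arrays. SORCS1 was at 10.41 in SH-SY5Y and 2.97 in SH-EP2 controls, where 1 of 2 arrays detected it, so that the size of the difference is set by background (adjusted p 1.13e-14). SORCS2 was detected on both SH-EP2 control arrays and no SH-SY5Y array, at least 1.38-fold higher (adjusted p 0.000684). SORL1 differed by -0.05 (adjusted p 0.972), and SORCS3 was detected on no array.

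Downstream of the Trk receptors, 28 adaptors and scaffolds were measured, 27 of them detected on at least 2 arrays. KIDINS220, a scaffold that docks on Trk and p75 receptors, rose by 0.40 in SH-SY5Y cells (SE 0.10, adjusted p 0.0472), and 0 changed in SH-EP2 cells. The called shares were 3.57% and 0%, against 2.11% and 3.02% of all probes, or 5.63% and 7.79% of those detected on all arrays. Between the control lines 7 were higher and 11 lower in SH-EP2 (64.3%), against 26.2% of all probes and 60.1% of those detected on all arrays.

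Of 16 partners of the p75 receptor with a probe, PRDM4, a zinc finger protein that binds it, fell by 0.43 in SH-SY5Y cells (SE 0.11, adjusted p 0.0402). In SH-EP2 cells NGFRAP1, now named BEX3, a p75-associated protein, rose by 0.54 (SE 0.082, adjusted p 0.000483), and SQSTM1, the scaffold p62, by 0.28 (SE 0.073, adjusted p 0.0376). Called genes made up 6.25% of the list in SH-SY5Y and 12.5% in SH-EP2 cells. The shares were 2.11% and 3.02% over all probes, and 5.63% and 7.79% over those detected on all arrays. The KIDINS220, PRDM4 and SQSTM1 calls were lost under 12, 13 and 9 of 19 alternatives, and the NGFRAP1 call under 3, among them the mean over its probes (0.33, adjusted p 0.0887).

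Genes known as early responses to Trk signalling numbered 17, and many other growth signals also induce them. With TRPM7 shRNA, 5.88% of them were called in SH-SY5Y and 11.8% in SH-EP2 cells. The shares were 2.11% and 3.02% over all probes, and 5.63% and 7.79% over those detected on all arrays. EGR1, a transcription factor made within minutes of ERK activation, fell by 1.39 in SH-SY5Y cells (SE 0.12, adjusted p 7.00e-07) and differed by 0.29 in SH-EP2 cells (adjusted p 0.292). The size of the decrease was 0.58 with no background correction and 0.74 with normexp. DUSP6, a phosphatase that switches off ERK, rose by 1.12 in SH-EP2 cells (SE 0.14, adjusted p 3.67e-05), and SPRY2, an inhibitor of receptor kinase signalling, by 0.90 (SE 0.11, adjusted p 3.99e-05), with 0.74 and 0.57 when no background was subtracted. In SH-SY5Y cells DUSP6 differed by -0.22 (adjusted p 0.601) and SPRY2 by -0.08 (adjusted p 0.866). VGF, a secreted peptide precursor that neurotrophins are known to induce, was at 13.33 in SH-SY5Y and 3.28 in SH-EP2 controls (adjusted p 1.11e-20), where 1 of 2 arrays detected it, so that the size is again set by background. Of 12 regulators of BDNF transcription with a probe, 0 changed with TRPM7 shRNA in either line. In SH-SY5Y and SH-EP2 cells 2.11% and 3.02% of all probes were called, or 5.63% and 7.79% of those detected on all arrays. A count of 0 in so short a list is therefore no result about these genes. In SH-EP2 controls 3 were higher and 1 lower (33.3%), against 26.2% of all probes and 60.1% of those detected on all arrays.

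**Figure D4:**
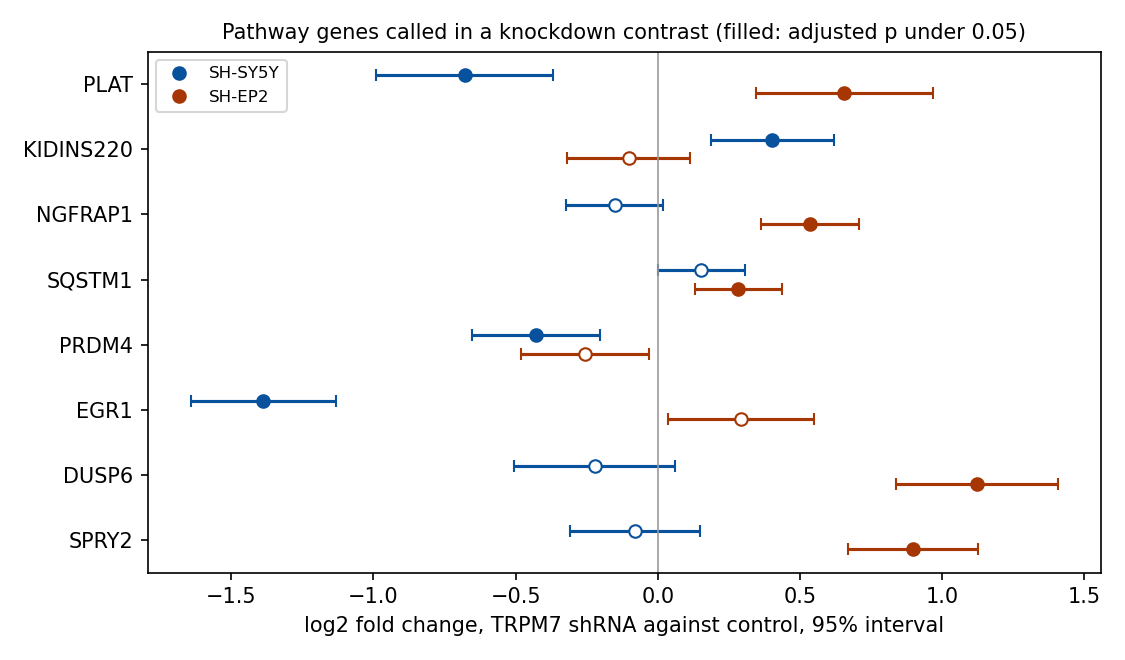
Fold change on the log2 scale, TRPM7 shRNA against control, with its 95% interval, for the 8 listed pathway genes called in at least 1 line, in SH-SY5Y (blue) and SH-EP2 (brown), filled where the adjusted p was under 0.05. PLAT is filled in both lines, with opposite signs (-0.68 and 0.66), and EGR1 is filled in SH-SY5Y (-1.39).

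The genes whose profile over the 8 arrays was closest to a member's were found by the Euclidean distance between log2 values centred on each probe's mean, which the line difference dominates. For SORT1 they were MRLC2 (distance 0.30, Pearson r 0.99), PVR (0.31, r 0.99) and SEC13 (0.32, r 0.99) of 20567 candidate probes. For BDNF ILMN_1751276 they were EIF5A2 (0.43, r 0.98), AHNAK (0.44, r 0.97) and ITPR2 (0.45, r 0.97) of 20566. These arrays share 4 groups and 2 lines, and the values are a description.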

How the data were processed

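RNA of 8 samples was hybridised to bead arrays, and the authors deposited a linear signal intensity and a detection p-value for each of 47322 probes. Per the labels these came from GenomeStudio 2011.1 and were not normalized. In R 4.3.3, background was removed by the model of RMA, followed by quantile normalization across arrays and log2. Background means were 98.3 to 111.1 (SD 6.71 to 8.05), and precision is limited by having 2 arrays a group. Arrays were grouped by line and shRNA from the labels, and replicates of a group correlated at 0.981 to 0.985. All probes were fitted with limma 3.58.1 (1 coefficient per group, moderated variances that follow intensity). Tests were two-sided and adjusted over all probes by Benjamini-Hochberg. Differences were called at an adjusted p under 0.05. The procedure was tested on simulated data, with 200 probes per line changed by 2 on the log2 scale, drawn from those detected on all arrays. Recovery of smaller changes, or of changes at background signals, was not tested. Listed genes are given by their brightest probe. Those called in a knockdown contrast are named, and FURIN, VGF, NTF4, PLG, PCSK1, PCSK2, the sortilin relatives and the marker genes were chosen after their values were seen. The methods name no test. Members and lists were chosen with earlier results of these data known. Sequences were matched by symbol, and NGFR had no entry.

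No pairing of samples by replicate number was seen: the control and TRPM7 shRNA differences between replicates correlated at -0.111 in SH-SY5Y and -0.0045 in SH-EP2 cells over 14577 probes. These values cannot show whether the samples were prepared in pairs. Alternatives were median scaling, no background correction, normexp (offset 50), neqc (offset 16), a detection filter, eBayes without a trend, a per-probe test, each line alone, a replicate block, the mean over a gene's probes, and leaving out each array. A crossed pairing and a stricter detection p were added after seeing the data.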

Additional observations from a re-analysis of the deposited data

Results flagged for a closer look

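Among the listed pathway genes the knockdown effect differed between the lines, by the interaction test, for 5 of 88 (5.68%), against 1.4% of all probes and 3.45% of probes detected on all arrays. The SH-EP2 effect minus the SH-SY5Y effect was 1.34 for PLAT (adjusted p 0.00113 in limma), with opposite signs in the 2 lines. It was 1.68 for EGR1 (adjusted p 9.35e-06), 1.35 for DUSP6 (adjusted p 0.000418), 0.98 for SPRY2 (adjusted p 0.00113) and 0.69 for NGFRAP1 (adjusted p 0.00217), on the log2 scale. With no background correction the values were 0.77 for PLAT, 0.84 for EGR1 and 0.65 for SPRY2, all still called. The PLAT, EGR1, DUSP6 and SPRY2 calls were each lost under 2 of 18 alternatives, eBayes without a trend and the per-probe test. The NGFRAP1 value was not called under 4 of 18 alternatives, among them the mean over its probes (0.35, adjusted p 0.297) and median scaling (adjusted p 0.0965). None of the 15 member probes passed this test, in which 2 had an unadjusted p under 0.05. No group had enough arrays for a test of single outlying samples.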

How the results depend on the processing

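SORT1 was higher in SH-EP2 than in SH-SY5Y controls, and passed the threshold, under all 18 alternatives run (1.18 to 1.74), and its SH-EP2 knockdown difference was negative under all 19 (-0.69 to -0.50), called in 13. With eBayes without an intensity trend, or a per-probe test, 0 member probes were called in SH-EP2 in place of 1, and leaving out each array gave 0 to 1. For the interaction, 1 member probe was called in place of 0 with neqc, normexp, no background correction, median scaling and the detection filter, and leaving out each array gave 0 to 1. With the mean over a gene's probes 1 member was called between the lines in place of 2, and BDNF turned to -0.16 in SH-SY5Y cells. Leaving out single arrays there turned SORT1 to -0.068 and -0.032 (range -0.068 to 0.24) and BDNF to -0.039 (range -0.039 to 0.76). Pathway genes called in SH-SY5Y cells numbered 8 with normexp, 7 with no background correction, 2 with median scaling, 2 with each line alone, 0 without a trend, 1 in the per-probe test and 1 to 4 on leaving out each array, in place of 4. In SH-EP2 cells they numbered 13 with each line alone, 0 without a trend and in the per-probe test, and 3 to 5 on leaving out each array, in place of 5, and for the interaction 0 without a trend and in the per-probe test, in place of 5. Where 1 array was left, it was assumed to vary like the other groups. The causes were not tested.

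The replicate block gave 2 pathway genes in SH-SY5Y in place of 4 and 4 in SH-EP2 in place of 5, kept the SORT1 call in SH-EP2 (adjusted p 0.0264) and changed no other count of members. The crossed pairing of the SH-SY5Y replicates called 0, 1 and 1 member probes in SH-SY5Y, SH-EP2 and the interaction. Over all probes, main counts of 999, 1429 and 662 in these contrasts ranged over 50 to 1392, 100 to 2587 and 15 to 1248. At background signals, 12 of the 15 probes limit what can be seen.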
